A study of Danio rerio with 58 samples.

Results

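Zebrafish pools exposed to gamma radiation at 50 mGy/h were compared directly with pools exposed at 5 mGy/h, without passing through the controls. All samples labelled 50 mGy/h or 5 mGy/h in irradiation batch I17 were taken, 18 of the 58 samples of the series, with 3 samples of each dose rate at 24, 48 and 96 hpf (hours post fertilization). Each sample was the RNA of entire AB strain embryos or larvae, grown at 28 °C, irradiated continuously by a 137Cs source in the exposed groups and not exposed in 9 controls of the same batch, which serve here as a background level. By the study's methods exposure began at the four-cell stage, so that within a stage both groups had been irradiated for the same time and differed in dose rate and in total dose together. All 18 exposed samples came from 1 irradiation batch, and the study's methods call dishes of 1 condition technical replicates. The p-values therefore measure the spread between these samples, which may be technical. In RNA from entire animals, fewer cells of a type and less RNA per cell cannot be told apart.

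The comparison asks whether a rise in dose rate between 5 and 50 mGy/h changed the transcriptome, and whether the change depended on stage. Ionising radiation breaks DNA, and cells answer such breaks by raising a set of target genes. Among them are genes that halt the cell cycle, such as cdkn1a, genes that feed back on the response, such as mdm2, and genes that lead to cell death, such as bbc3. In zebrafish embryos these targets are a common readout of DNA damage.

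The 18 libraries held between 29691804 and 49971607 counts on genes, with a median of 35244502. Levels are given as CPM (counts scaled to a common library size, with TMM factors), and fold changes are log2 values of 50 minus 5 mGy/h from edgeR's quasi-likelihood test. A gene was called when its fold change reached 1.5 and its adjusted p was below 0.01, which is the study's threshold. Symbols in capitals are those a table of gene names gives in human form. The replicate spread, as the biological coefficient of variation, was 19.5% at 24 hpf, 26.4% at 48 hpf and 18.1% at 96 hpf. The authors had removed 2 of these samples, which are kept here. They were replicate 9 among the 96 hpf libraries of 50 mGy/h, and replicate 8 among the 48 hpf libraries of 5 mGy/h. Multimapped reads were most frequent in the 5 mGy/h libraries named replicate 9 (96 hpf) and replicate 5 (48 hpf). Muscle, yolk and epidermis markers and the lens marker CRYBB1 were present at each stage in all groups. The muscle marker actc1b had 14360 to 54350 CPM at 50 mGy/h and 11170 to 39630 CPM at 5 mGy/h. The lens marker CRYAA was low at 24 hpf, at most 0.642 CPM at 50 mGy/h and 0.648 CPM at 5 mGy/h. The neutrophil marker lyz was near 0 in every exposed library, at most 0.383 CPM at 50 mGy/h and 0.213 CPM at 5 mGy/h.

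With stage as a block, no gene passed the threshold between 50 and 5 mGy/h over the 3 stages. Of 20918 genes tested, edgeR called 0, and 1064 had an unadjusted p under 0.05, with 472 higher (2.26%) and 592 lower (2.83%) at 50 mGy/h. DESeq2 called 2 genes, crtac1a and si:ch211-219a15.4. The nearest to the threshold in edgeR was crtac1a (ENSDARG00000059826), which codes for a cartilage acidic protein of the extracellular matrix. It had 4.52, 5.47 and 5.96 CPM at 50 mGy/h against 3.04, 2.32 and 4.26 CPM at 5 mGy/h in 24 hpf embryos. At 48 hpf it had 22.3, 21.8 and 22.9 CPM at 50 mGy/h against 7.87, 8.05 and 5.48 CPM at 5 mGy/h, and at 96 hpf 52.1, 34.4 and 42.0 CPM at 50 mGy/h against 31.8, 22.5 and 31.4 CPM at 5 mGy/h. Each library of 50 mGy/h thus exceeded each library of 5 mGy/h at the same stage. The log2 difference was 0.99 (standard error 0.16, edgeR adjusted p = 0.0601). Without the 2 samples that the authors removed the adjusted p was 0.277. With the 9 controls in the edgeR fit it was 7.67e-05. That fit also took a mean per dose rate and stage in place of the stage block, so the model changed too. Controls at 96 hpf held between 65.0 and 76.0 CPM of crtac1a, more than any exposed library of that stage.

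Libraries of the 2 dose rates were about as far apart as libraries of 1 group. At 24 hpf the median distance between a 50 mGy/h and a 5 mGy/h library, as the root mean square of log2 CPM differences, was 0.616. It was 0.648 among the 50 mGy/h libraries and 0.606 among the 5 mGy/h libraries. At 48 hpf these medians were 0.586 across dose rates, 0.688 within 50 mGy/h and 0.620 within 5 mGy/h. At 96 hpf they were 0.500 across, 0.466 within 50 mGy/h and 0.533 within 5 mGy/h. The median distance to controls was 0.751 from 50 mGy/h and 0.749 from 5 mGy/h at 24 hpf, and 0.697 from 50 mGy/h and 0.670 from 5 mGy/h at 48 hpf. At 96 hpf it was 0.516 from 50 mGy/h and 0.547 from 5 mGy/h, close to the distance across dose rates.

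Developmental position was compared because embryos that lag differ in many genes. It was computed for each library on the change that the batch I10 controls underwent between stages, in percent of that change. At 24 hpf the mean position was 4.81 ± 4.78 percent at 50 mGy/h and 5.77 ± 1.42 percent at 5 mGy/h (SD, n = 3 each). At 48 hpf it was 81.1 ± 9.03 percent at 50 mGy/h and 87.7 ± 7.23 percent at 5 mGy/h (SD, n = 3 each). At 96 hpf the means were 93.4 ± 5.10 percent at 50 mGy/h and 93.7 ± 5.25 percent at 5 mGy/h (SD, n = 3 each). The difference over the 3 stages was -2.66 percent (two-sided exact permutation test within stages, p = 0.34, adjusted p over 4 tests 0.8). Within 1 stage the smallest p that 3 against 3 samples allow is 0.1. The controls of batch I17 lay ahead of every exposed library at each stage. They lay between 21.99 and 25.8 percent at 24 hpf, between 109.3 and 111.5 percent at 48 hpf and between 100 and 105.6 percent at 96 hpf.

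The target genes of the DNA damage response leaned to higher levels at 50 mGy/h, although none was called. Of the 25 listed genes tested over the 3 stages, 20 were higher at 50 mGy/h, with a median log2 difference of 0.18. Over all 20918 genes the share higher was 53.2% and the median was 0.012. An unadjusted p under 0.05 was reached by 10 of the 25 genes, all higher at 50 mGy/h, against 2.26% of all genes in that direction. This list, like the others used here, was chosen with earlier results of these data known, so its shares are not independent support. Called genes made up 0% of all genes in this comparison, and 0 of the 25. By stage, 21 of 24 listed genes were higher at 24 hpf (median 0.23) and 19 of 25 at 48 hpf (median 0.34). At 96 hpf only 12 of 25 were higher, with a median of -0.0147. The shares of all genes higher at these stages were 51.4%, 52.8% and 50.8%. Every 50 mGy/h library lay above every 5 mGy/h library for 4 of the 24 listed genes at 24 hpf, against 4.53% of all genes. This held for 6 of 25 at 48 hpf (3.87% of all genes) and 5 of 25 at 96 hpf (3.82%). The reverse order held for 0 listed genes at 24 hpf (3.42% of all genes), 1 at 48 hpf (4.34%) and 0 at 96 hpf (4.22%). Such a separation was seen at 2 or more stages for 4 listed genes, against 0.755% of all genes upward and 0.837% downward. A positive difference at each of the 3 stages was shared by 11 of 24 genes, against 15.7% of all genes, and a negative one by 1, against 12.5%.

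**Figure D1:**
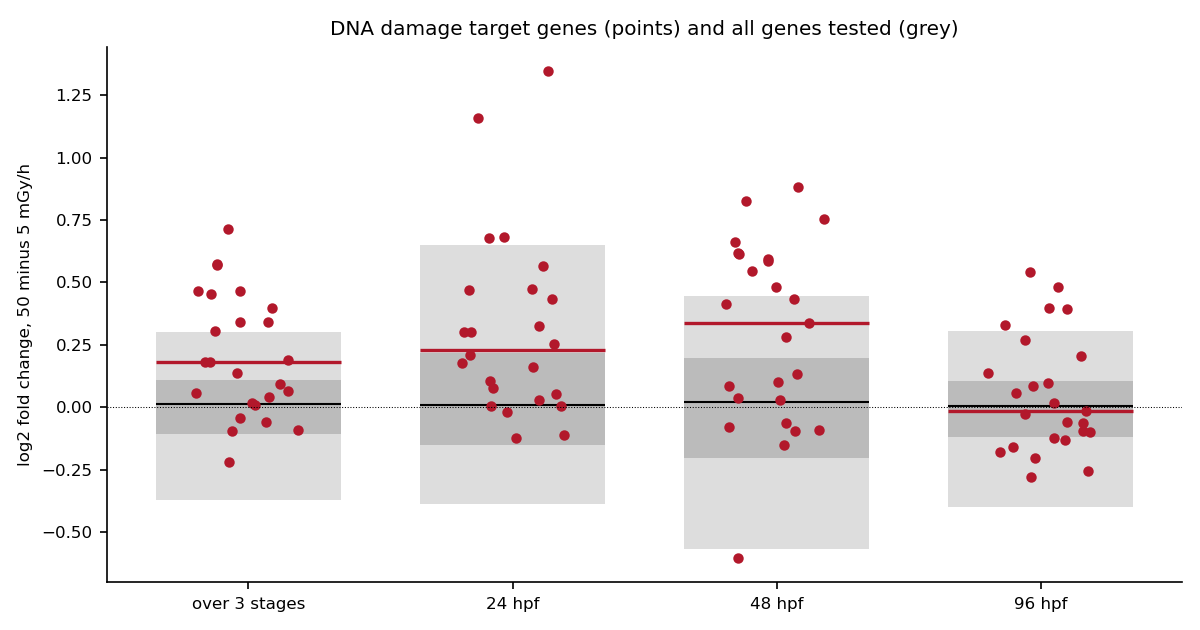
Log2 fold change of 50 minus 5 mGy/h for each gene of the DNA damage target list (red points, red line at the median) over the 3 stages and at each stage. Grey boxes hold the 5th to 95th percentile of all genes tested, darker between the 25th and 75th, with a black line at their median. The list's median was 0.18 over the 3 stages and lay near the median of all genes at 96 hpf (-0.0147).

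The listed gene with the lowest p was rps27l (ENSDARG00000100513), a ribosomal protein paralogue that is raised by DNA damage in mammals. It had 84.5, 54.9 and 71.0 CPM at 50 mGy/h against 44.2, 49.0 and 50.8 CPM at 5 mGy/h in 24 hpf embryos. At 48 hpf it had 42.6, 46.7 and 54.5 CPM at 50 mGy/h against 33.5, 31.8 and 19.9 CPM at 5 mGy/h, and at 96 hpf 36.9, 31.7 and 28.4 CPM at 50 mGy/h against 22.04, 24.7 and 26.6 CPM at 5 mGy/h. The groups did not overlap at any stage, which held for 10 of 20918 genes (0.0478%) in this direction and for another 10 (0.0478%) in the other. The log2 difference over the stages was 0.57 (standard error 0.11, edgeR adjusted p = 0.205, higher in 9 of 9 libraries than each library of 5 mGy/h at its stage). In controls rps27l ranged between 28.1 and 32.7 CPM at 24 hpf, below both dose rates. At 48 hpf the controls held 22.8 to 27.6 CPM, within the range at 5 mGy/h and below each library of 50 mGy/h. At 96 hpf they held 28.5 to 31.4 CPM, within the range at 50 mGy/h and above each library of 5 mGy/h. The gap at 96 hpf thus lay between the control level and lower values at 5 mGy/h.

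The gene mdm2 (ENSDARG00000033443), whose product is a ubiquitin ligase that ends the response, was the other listed gene with no overlap at any stage. It had 13.2, 11.4 and 9.89 CPM at 50 mGy/h against 7.67, 9.53 and 8.19 CPM at 5 mGy/h at 24 hpf. At 48 hpf the values were 8.70, 10.03 and 7.27 CPM at 50 mGy/h against 6.87, 6.25 and 6.38 CPM at 5 mGy/h, and at 96 hpf 8.04, 8.24 and 9.79 CPM at 50 mGy/h against 6.68, 8.01 and 5.91 CPM at 5 mGy/h. The gap at 96 hpf was small, since the lowest library of 50 mGy/h stood just above the highest of 5 mGy/h. Its log2 difference was 0.40 (standard error 0.095, edgeR adjusted p = 0.654). Controls held 8.02 to 10.4 CPM of mdm2 at 24 hpf and 7.96 to 9.25 CPM at 96 hpf, overlapping both dose rates. At 48 hpf they held 5.26 to 6.55 CPM, below each library of 50 mGy/h.

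The cell cycle inhibitor cdkn1a (ENSDARG00000076554) differed most at 24 hpf and least at 96 hpf. It had 5.72, 3.70 and 2.74 CPM at 50 mGy/h against 2.15, 1.94 and 1.39 CPM at 5 mGy/h at 24 hpf, with no overlap. At 48 hpf it had 5.62, 3.99 and 2.41 CPM at 50 mGy/h against 2.49, 2.03 and 2.25 CPM at 5 mGy/h, where replicate 8 of 50 mGy/h lay among the 5 mGy/h values. At 96 hpf the level was several times higher in both groups, with 11.3, 11.7 and 13.6 CPM at 50 mGy/h against 9.62, 11.9 and 8.67 CPM at 5 mGy/h. The stage differences were 1.16, 0.83 and 0.27, and the change between stages did not pass the edgeR interaction test (adjusted p = 1). Controls held 2.02 to 2.36 CPM at 24 hpf, close to the level at 5 mGy/h.

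Cyclin G1 (CCNG1, ENSDARG00000076667), a target that acts back on the response, was also higher at 50 mGy/h at each stage. At 48 hpf it had 287, 296 and 209 CPM at 50 mGy/h against 171, 196 and 175 CPM at 5 mGy/h, with no overlap, and 128 to 166 CPM in controls. At 24 hpf it had 140, 92.8 and 101 CPM at 50 mGy/h against 93.3, 70.14 and 87.0 CPM at 5 mGy/h, and at 96 hpf 83.1, 114 and 96.9 CPM at 50 mGy/h against 65.9, 86.6 and 70.4 CPM at 5 mGy/h, with overlap at both. The controls were not below the exposed groups at 24 hpf. There each control lay above each library of 5 mGy/h, and within or above the range at 50 mGy/h. At 96 hpf each control lay below each library of 50 mGy/h. PHLDA3 (ENSDARG00000037804), which restrains Akt signalling, had 7.04, 7.33 and 5.89 CPM at 50 mGy/h against 5.08, 5.07 and 4.29 CPM at 5 mGy/h at 96 hpf. Over the 3 stages the log2 differences were 0.45 for CCNG1 (standard error 0.11, edgeR adjusted p = 0.654) and 0.47 for PHLDA3 (standard error 0.12, adjusted p = 0.681).

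Also with an unadjusted p under 0.05 were bbc3 (0.57), sesn3 (0.34), sesn2 (0.34) and RRM2B (0.19), each as a log2 difference over the stages. The gene bbc3 codes for the death-promoting Puma, the sestrins sesn2 and sesn3 restrain growth signalling under stress, and RRM2B supplies nucleotides for repair. The difference of sesn2 was largest at 48 hpf, where it had 21.6, 16.4 and 18.2 CPM at 50 mGy/h against 11.6, 11.9 and 7.02 CPM at 5 mGy/h. Not every target leaned the same way. The pro-apoptotic BAX had a log2 difference of 0.067, and sesn1 one of 0.018 whose sign turned under 8 of the alternatives. PPM1D (ENSDARG00000021380), a phosphatase that ends the response, had -0.22, and XPC, which recognises DNA lesions, had -0.091. This PPM1D entry held only 24 to 69 counts per exposed library. Another gene of that symbol, ENSDARG00000009273, held 751 to 2575 counts, and its levels at 50 and 5 mGy/h overlapped at each stage. The lists of DNA repair and of apoptosis genes had medians nearer 0. Of 35 repair genes 17 were higher at 50 mGy/h over the stages (median -0.0224), and of 27 apoptosis genes 17 were higher (median 0.0214).

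**Figure D2:**
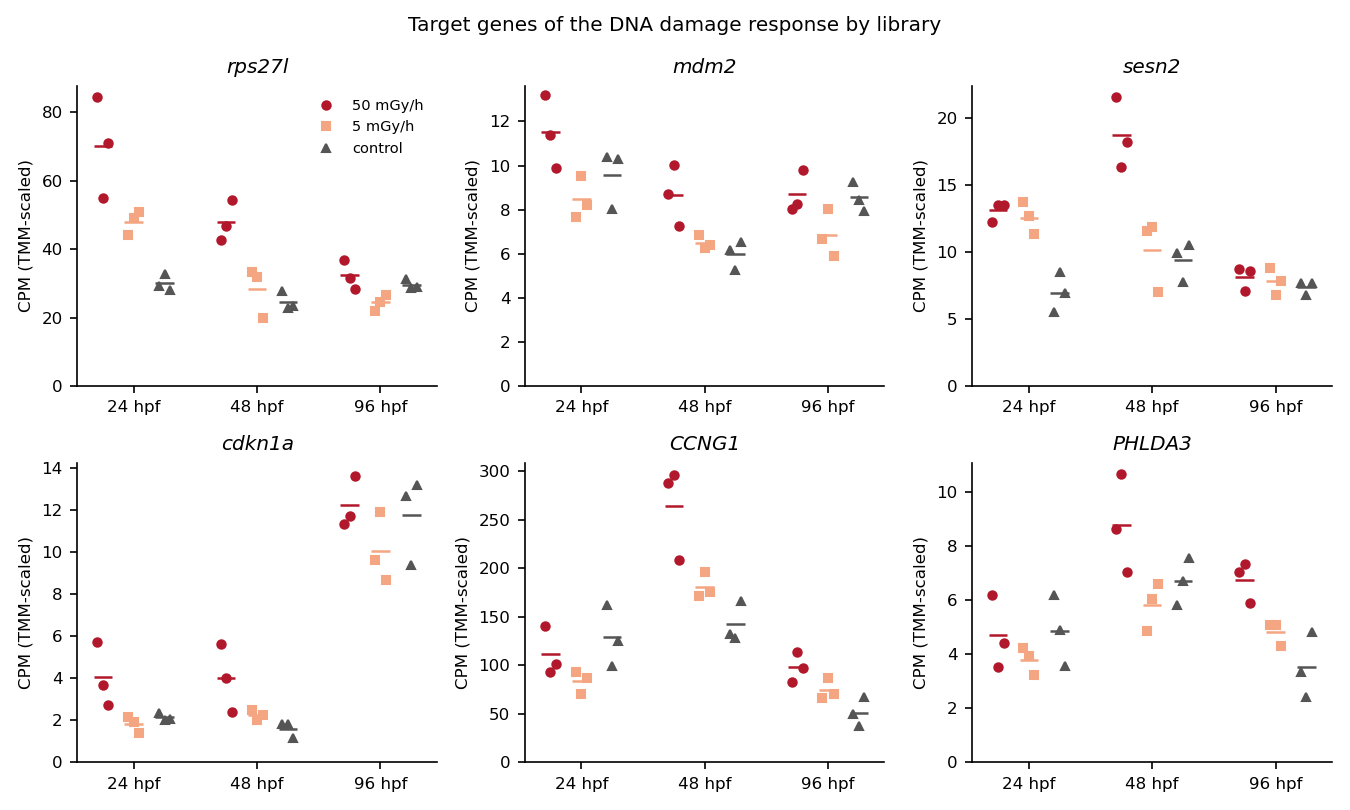
CPM of 6 target genes of the DNA damage response in each library, by stage on the x axis, for 50 mGy/h (circles), 5 mGy/h (squares) and controls (triangles), 3 libraries each, with a bar at the mean. The rps27l and mdm2 libraries of 50 mGy/h stand above those of 5 mGy/h at each stage, and 1 library of 50 mGy/h at 48 hpf has cdkn1a at 2.41 CPM, among the 5 mGy/h values.

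The median of the DNA damage target list over the stages stayed above 0 in each of 27 alternatives, with between 18 and 21 genes higher and 7 to 11 at an unadjusted p under 0.05. Its median was smallest, 0.0639, with developmental position as a covariate. Stages were also left out in turn, an alternative chosen after seeing the data. Without the 48 hpf samples 19 of 25 genes were higher, the median was 0.0761 and 6 genes had an unadjusted p under 0.05. Without the 24 hpf samples 16 of 25 were higher, with a median of 0.139. Without replicate 6 of 50 mGy/h at 48 hpf the median at that stage was 0.138 and 2 genes, in place of 8, had an unadjusted p under 0.05.

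Beyond that list, the 10 genes of lowest p that were higher at 50 mGy/h over the stages included lonrf1 (ENSDARG00000078567), RNF14 (ENSDARG00000078683), a ubiquitin ligase, and colgalt2a, which adds galactose to collagen. For lonrf1 the libraries of 50 mGy/h had 33.3, 41.9 and 37.4 CPM against 26.3, 24.6 and 24.4 CPM at 5 mGy/h at 24 hpf. At 48 hpf lonrf1 had 67.2, 58.0 and 46.9 CPM at 50 mGy/h against 30.6, 33.4 and 37.2 CPM at 5 mGy/h, and at 96 hpf 90.9, 84.9 and 82.1 CPM at 50 mGy/h against 79.2, 77.1 and 75.1 CPM at 5 mGy/h. The difference over the stages was 0.50 (standard error 0.098, edgeR adjusted p = 0.205). Controls held 33.4 to 36.0 CPM of lonrf1 at 24 hpf, 39.8 to 44.1 CPM at 48 hpf and 91.3 to 101 CPM at 96 hpf. At 96 hpf they lay above each exposed library. Of the antioxidant list 26 of 31 genes were higher at 50 mGy/h, with a median of 0.0812, against 53.2% of all genes. Without the samples removed by the authors 16 of 31 were higher, with a median of 0.0204. Among them nfe2l2b, a paralogue of the regulator Nrf2, had 0.52 (edgeR adjusted p = 0.825), and prdx1, a peroxiredoxin, had 0.28 (adjusted p = 0.959). Among the genes lower at 50 mGy/h, the gene with no symbol ENSDARG00000084828 and si:ch211-219a15.4 were near 0 CPM in most libraries. Others were akap7 (-0.48, edgeR adjusted p = 0.654), PKNOX1 (ENSDARG00000036542, -0.50, adjusted p = 0.681) and CLIP3 (-0.39, adjusted p = 0.681).

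In 24 hpf embryos edgeR called 0 of 17363 genes between the dose rates and DESeq2 called 0. The lowest edgeR adjusted p was 0.864, and 749 genes had an unadjusted p under 0.05. Of these 612 were higher and 137 lower at 50 mGy/h, which is 3.52% and 0.789% of the genes tested. The number depended on single libraries. It was 371 without replicate 1 of 50 mGy/h, 2865 without replicate 4 of 50 mGy/h and 305 without replicate 4 of 5 mGy/h. Embryos of this stage differed far more from controls, with 5.88% of 18358 genes called at 50 mGy/h and 9.89% at 5 mGy/h. Taken by those calls, 221 genes passed against controls at 50 mGy/h alone, 958 at 5 mGy/h alone and 858 at both. Tested directly in the exposed libraries, where 218 and 943 of them could be fitted, 0 genes of either set were called between the dose rates, and 31 and 64 had an unadjusted p under 0.05. Their median log2 differences of 50 minus 5 mGy/h were 0.0908 and -0.0948. The sets were chosen with the same exposed libraries, so the signs of these medians are partly set by the choice. The mitochondrially encoded proteins were all higher at 50 mGy/h, 13 of 13 with a median of 0.32, against 51.4% of all genes. The libraries of the 2 dose rates overlapped in each, since every 50 mGy/h library lay above every 5 mGy/h library for 0 of the 13 (4.53% of all genes). An unadjusted p under 0.05 was reached by 3 of them. Over the alternatives 10 to 13 of them were higher, with medians between 0.0728 and 0.546. Of these, mt-atp8 varied widely between libraries. It had 104, 50.0 and 6.88 CPM at 50 mGy/h against 8.84, 9.53 and 13.6 CPM at 5 mGy/h, and mt-atp8 was called when replicate 4 of 50 mGy/h was left out.

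At 48 hpf edgeR called 0 of 19282 genes, with a lowest adjusted p of 0.17. An unadjusted p under 0.05 was reached by 398 genes, 181 higher (0.939%) and 217 lower (1.13%) at 50 mGy/h. DESeq2 called crtac1a and c7b, a gene of the terminal complement pathway. For c7b the edgeR log2 difference was 1.75 and the adjusted p 0.987. Against controls 0.219% of genes were called at 50 mGy/h and 0.0408% at 5 mGy/h. Of these 35 genes were called at 50 mGy/h alone and 0 at 5 mGy/h alone, and the direct test called 0 of the 35. Their median difference of 50 minus 5 mGy/h was 0.468, in the same exposed libraries by which the 35 were chosen. That choice by itself favours a larger difference in the direction in which each gene was called. Neuronal genes were lower at 50 mGy/h in 40 of 48 cases, with a median of -0.215 against 0.0197 over all genes. The pan-neuronal RNA-binding protein gene elavl3 had 46.8, 82.8 and 76.8 CPM at 50 mGy/h against 134, 126 and 112 CPM at 5 mGy/h, with no overlap (log2 difference -0.85, edgeR adjusted p = 0.987). Its controls held 130 to 185 CPM. Summed over the neuronal list, the libraries ranged between 1187 and 1542 CPM at 50 mGy/h, between 1408 and 1757 CPM at 5 mGy/h and between 2070 and 2341 CPM in controls. Ribosomal protein genes were higher at 50 mGy/h in 79 of 86 cases (median 0.271) and muscle genes in 42 of 48 (median 0.235). These 2 lists depended on single libraries. Without replicate 8 of 50 mGy/h 24 of 86 ribosomal protein genes were higher (median -0.076) and 26 of 49 muscle genes (median 0.0197). Without replicate 8 of 5 mGy/h, which the authors removed, 33 of 86 ribosomal protein genes were higher (median -0.0208). The neuronal median was -0.369 without replicate 8 of 50 mGy/h. The mean developmental position was lower at 50 than at 5 mGy/h by 6.68 percent at this stage. With position as a covariate 35 of 48 neuronal genes were lower (median -0.0992), 76 of 86 ribosomal protein genes were higher (median 0.247) and 43 of 48 muscle genes were higher (median 0.205).

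In 96 hpf larvae 5 of 19817 genes (0.0252%) passed the threshold in edgeR, and all 5 were lower at 50 than at 5 mGy/h. They were irg1l, zgc:153932, plekhs1.1, si:ch211-153b23.3 and si:dkey-239b22.1. Of these, plekhs1.1 passed the filter on low counts only through its 5 mGy/h libraries. At an adjusted p under 0.05 with no fold limit 11 genes passed (0.0555%), again all lower at 50 mGy/h. In each of the 11 every 5 mGy/h library stood above every control as well, and in 9 of them the 50 mGy/h libraries overlapped the controls. The set was thus high at 5 mGy/h and near the control level at 50 mGy/h. Against controls 10 of the 11 were called at 5 mGy/h and 0 at 50 mGy/h, where 0.134% and 0.0298% of all genes were called. The 11 were chosen by a test on the same exposed libraries, so these counts are not separate support. With the controls in the fit of 50 against 5 mGy/h 11 genes were called (0.0547%).

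The gene irg1l (ENSDARG00000062788) is named for its likeness to the immunoresponsive gene whose mammalian product makes itaconate in activated macrophages. It had 14.5, 10.8 and 13.0 CPM at 50 mGy/h against 114, 76.0 and 64.4 CPM at 5 mGy/h, and 18.3, 14.2 and 12.8 CPM in controls. The lowest 5 mGy/h library was thus several times above the highest 50 mGy/h library. The log2 difference was -2.74 (standard error 0.22, edgeR adjusted p = 0.00588). At 24 hpf the difference of irg1l was -0.16 and at 48 hpf 0.31, and it changed between stages (edgeR interaction test, adjusted p = 0.00154). Relative to 48 hpf the 96 hpf difference was shifted by -3.05 (standard error 0.35). Without replicate 10 or 11 of 50 mGy/h at 96 hpf the lowest edgeR adjusted p for a difference between stages was 0.0121 and 0.0194, past the threshold of 0.01, while irg1l had like levels in the 3 libraries of 50 mGy/h. At 24 hpf irg1l had been above controls at both dose rates, with 14.8, 13.6 and 14.9 CPM at 50 mGy/h, 11.9, 14.5 and 22.7 CPM at 5 mGy/h and 3.09 to 4.81 CPM in controls.

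The gene si:ch211-153b23.3 (ENSDARG00000104919) had 2.78, 2.42 and 2.01 CPM at 50 mGy/h against 30.6, 20.7 and 14.3 CPM at 5 mGy/h in 96 hpf larvae, and 1.96 to 2.25 CPM in controls. Its log2 difference was -3.19 (standard error 0.28, edgeR adjusted p = 0.00588), and it too changed between stages (interaction adjusted p = 0.00355), with 0.71 at 24 hpf and 0.24 at 48 hpf. Its neighbour in name si:ch211-153b23.4 had 4.23, 6.79 and 5.73 CPM at 50 mGy/h against 20.9, 20.5 and 14.1 CPM at 5 mGy/h (log2 difference -1.72, adjusted p = 0.0477). These 2 genes, irg1l and si:ch211-153b23.3, were the only ones of 20918 (0.00956%) to pass for a difference between stages in edgeR. DESeq2 passed 12.

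The other called genes had like patterns. For zgc:153932 (ENSDARG00000052779) the libraries had 2.43, 1.82 and 2.01 CPM at 50 mGy/h against 15.17, 10.3 and 10.1 CPM at 5 mGy/h (log2 difference -2.52, edgeR adjusted p = 0.00588). The gene si:dkey-239b22.1 (ENSDARG00000031588) had 2.78, 1.94 and 1.79 CPM at 50 mGy/h against 16.2, 10.1 and 10.6 CPM at 5 mGy/h (-2.51, adjusted p = 0.00932). The pleckstrin domain gene plekhs1.1 (ENSDARG00000079227) had 0.175, 0.143 and 0.214 CPM at 50 mGy/h against 2.56, 3.03 and 1.86 CPM at 5 mGy/h (-3.83, adjusted p = 0.00588). Its 50 mGy/h libraries also lay below the controls, at 0.345 to 0.496 CPM. Those 50 mGy/h libraries held 7, 9 and 8 counts of plekhs1.1, under the filter's minimum count of 10. The gene was thus tested only because of its 5 mGy/h libraries, and its direction was partly set by the filter. Among the 6 further genes at an adjusted p under 0.05 were ELF3, an epithelial transcription factor, with 17, 16.5 and 15.4 CPM at 50 mGy/h against 52.96, 33.6 and 38.0 CPM at 5 mGy/h, and the sulfotransferase sult5a1, with 0.701, 0.813 and 1.04 CPM at 50 mGy/h against 4.79, 5.37 and 3.31 CPM at 5 mGy/h.

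**Figure D3:**
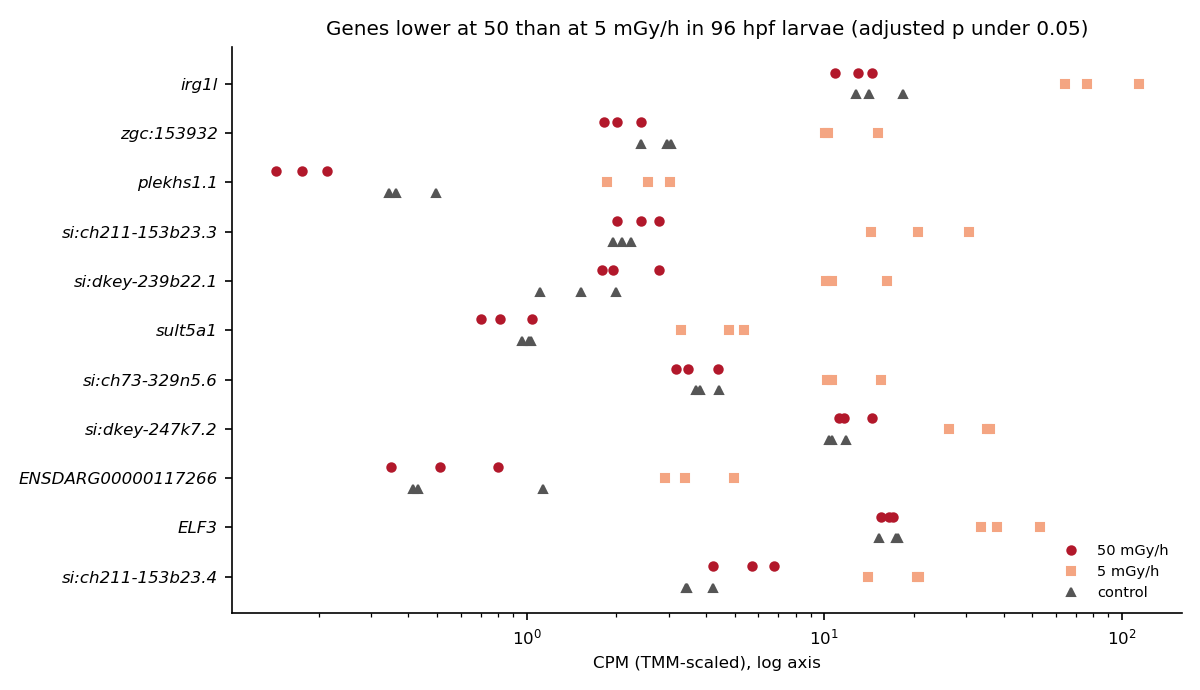
CPM on a log axis of the 11 genes with an adjusted p under 0.05 between the dose rates at 96 hpf, for each library of 50 mGy/h (circles), 5 mGy/h (squares) and controls (triangles). The 3 libraries of 5 mGy/h lie above all others in each gene, and the 50 mGy/h libraries overlap the controls in 9 of the 11.

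At 96 hpf 324 genes were lower at 50 mGy/h with an unadjusted p under 0.05, and 4 of those below the edgeR threshold are given here. They were not the 4 of lowest p, since others such as zgc:174917 (edgeR adjusted p = 0.0571) stood nearer to the threshold. Of these 4, il1b was chosen after its values were seen. The inducible nitric oxide synthase NOS2 (ENSDARG00000026925) had 0, 0.0638 and 0 CPM at 50 mGy/h against 0.958, 0.823 and 0.438 CPM at 5 mGy/h (edgeR adjusted p = 0.162). The cytokine il1b had 0.376, 0.287 and 0.375 CPM at 50 mGy/h against 1.79, 1.603 and 0.684 CPM at 5 mGy/h (adjusted p = 0.524). The chemokine ccl20a.3 had 0.100, 0.0956 and 0.0535 CPM at 50 mGy/h against 0.767, 0.520 and 0.766 CPM at 5 mGy/h (adjusted p = 0.0884). The oxidase organiser noxo1a had 6.99, 5.24 and 4.76 CPM at 50 mGy/h against 18.1, 11.2 and 10.99 CPM at 5 mGy/h (adjusted p = 0.254). DESeq2 called these 4 genes, among 33 of which 31 were lower at 50 mGy/h. NOS2 and ccl20a.3 passed the filter on low counts only through the 5 mGy/h libraries, so their direction was partly set by the filter. In controls il1b had 0.146 to 0.464 CPM. By unscaled counts noxo1a had 231 to 252 in controls, 178 to 329 at 50 mGy/h and 402 to 568 at 5 mGy/h. NOS2 had 0 to 3 counts in controls. Neutrophil and macrophage markers were mixed. Among the macrophage genes MPEG1 (ENSDARG00000043093) had 5.71, 3.62 and 4.47 CPM at 50 mGy/h against 13.0, 9.25 and 7.52 CPM at 5 mGy/h, and 4.198 to 4.85 CPM in controls. Of 22 neutrophil and macrophage genes tested, 14 were lower at 50 mGy/h, 6 of them with an unadjusted p under 0.05, against 1.63% of all genes in that direction. Their part in the result was not tested. Summed over the 30 genes matched to that list, the libraries ranged between 118 and 170 CPM at 50 mGy/h, between 162 and 214 CPM at 5 mGy/h and between 165 and 221 CPM in controls, and the defining marker lyz was at most 0.0650 CPM. The 4 tested genes named MFAP4, another macrophage marker, had log2 differences between 0.081 and 0.35. The macrophage genes marco, spi1a and csf1ra had 0.074, 0.10 and -0.11, and the pan-leukocyte genes ptprc and lcp1 had -0.061 and -0.066.

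Of the genes higher at 50 mGy/h at 96 hpf, cyp1a (ENSDARG00000098315), a target of the aryl hydrocarbon receptor, had the lowest p. It had 120, 92.6 and 129 CPM at 50 mGy/h against 60.0, 49.8 and 50.2 CPM at 5 mGy/h, with controls at 85.1 to 103 CPM. The 5 mGy/h libraries stood apart below the others, in the reverse of the irg1l order. The log2 difference was 1.09 (standard error 0.17, edgeR adjusted p = 0.0683). The hatching enzyme he1.1 had 1.78, 1.83 and 1.85 CPM at 50 mGy/h against 0.415, 0.693 and 0.848 CPM at 5 mGy/h (1.46, adjusted p = 0.413).

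The direction and size of the 5 called differences changed little when 1 library of 50 mGy/h was left out. The log2 difference of irg1l then lay between -2.83 and -2.64, that of plekhs1.1 between -3.96 and -3.67 and that of si:ch211-153b23.3 between -3.28 and -3.08. The calls themselves were lost with 1 library fewer, since the lowest edgeR adjusted p was 0.0118 without replicate 9 (which the authors removed), 0.0124 without replicate 10 and 0.0921 without replicate 11 of 50 mGy/h. Without 5 mGy/h replicate 9 it called 1 of the 5, without replicate 10 all 5 and without replicate 11 2. The gene irg1l was called in each of those 3 fits. Leaving out replicate 9 of 5 mGy/h, the library with the most multimapped reads, left irg1l at 76.0 and 64.4 CPM, still above each library of 50 mGy/h. Against controls 22 genes had been called at 5 mGy/h alone in the 96 hpf larvae and 1 at 50 mGy/h alone. The direct test called 5 of the 22, and 10 had an adjusted p under 0.05, in the same exposed libraries by which the 22 were chosen. Without the samples removed by the authors 42 genes were called at 5 mGy/h alone, of which the direct test called 0 and 7 had an adjusted p under 0.05.

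Collagen genes leaned to higher levels at 50 mGy/h in 96 hpf larvae, though most overlapped between the dose rates. All 56 genes tested had a positive difference, with a median of 0.201 against 0.00334 over all genes, and 0 of 56 were called. Every 50 mGy/h library lay above every 5 mGy/h library for 9 of the 56, against 3.82% of all genes. An unadjusted p under 0.05 was reached by 7 of the 56, against 0.873% of all genes in that direction. Over the alternatives 50 to 56 collagen genes were higher, with 1 to 32 at an unadjusted p under 0.05. The largest of the 7 was col8a1a, with 3.86, 2.92 and 2.84 CPM at 50 mGy/h against 2.27, 1.91 and 2.27 CPM at 5 mGy/h (0.57, edgeR adjusted p = 1). Muscle genes were higher in 46 of 49 cases (median 0.137, or 0.0568 without the samples removed by the authors), and lens crystallins in 35 of 41 (median 0.224). Of the 41 crystallins 0 were higher and 1 lower with an unadjusted p under 0.05. Every 50 mGy/h library lay above every 5 mGy/h library for 1 of the 41 (3.82% of all genes). At 24 hpf 26 of 33 crystallins were higher (median 0.236), and at 48 hpf 23 of 40 (median 0.0619). For 11 of the 49 muscle genes every 50 mGy/h library lay above every 5 mGy/h library at 96 hpf, against 3.82% of all genes. Of the 49, 1 was higher with an unadjusted p under 0.05, against 0.873% of all genes. The muscle list summed to between 97000 and 160200 CPM at 50 mGy/h and between 88140 and 129600 CPM at 5 mGy/h at 96 hpf, so that its sums overlapped. Immediate early genes, which respond to acute stimuli, leaned the other way at 96 hpf. Of 28 tested 23 were lower at 50 mGy/h (median -0.152), among them junba, JUNB (ENSDARG00000104773), SOCS3 (ENSDARG00000025428) and ier2a, each with an unadjusted p under 0.05 and none called. Such a p was reached by 5 of the 28 in that direction, against 1.63% of all genes. The lean was reversed at 48 hpf, where 21 of 27 immediate early genes were higher (median 0.228). At 24 hpf 14 of 23 were higher (median 0.108). At 24 hpf 23 of 50 collagen genes were higher (median -0.0325), and at 48 hpf 41 of 56 (median 0.216). Over the alternatives at 48 hpf 29 to 49 collagen genes were higher. The difference of the lists between stages was not tested.

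**Figure D4:**
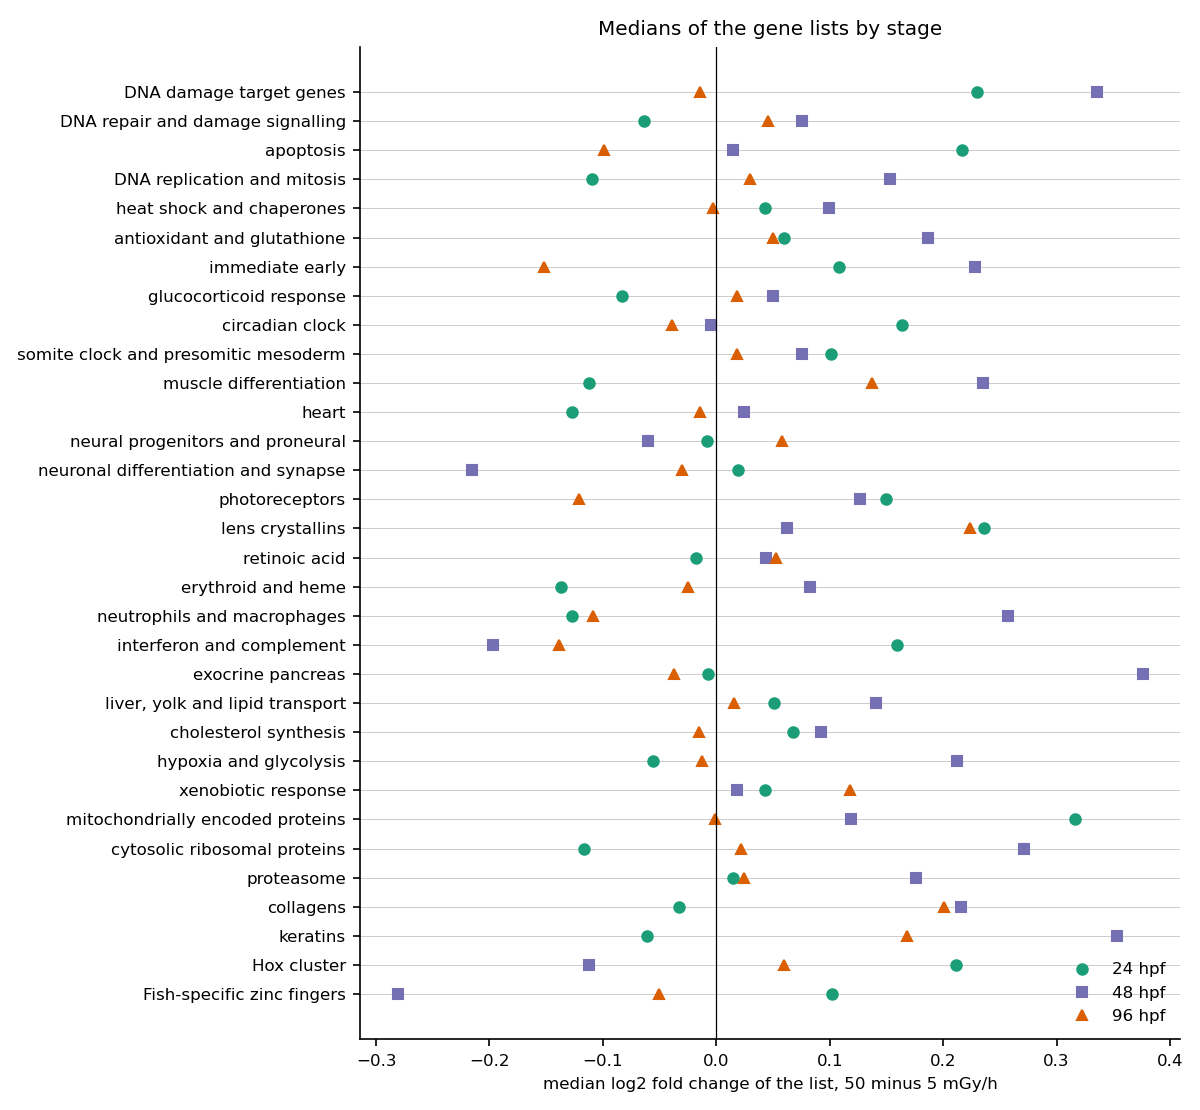
Median log2 fold change of 50 minus 5 mGy/h over the genes of each of 32 lists, on the x axis, at 24 hpf (circles), 48 hpf (squares) and 96 hpf (triangles). The DNA damage target genes have 0.23, 0.34 and -0.0147. Collagens have 0.216 at 48 hpf and 0.201 at 96 hpf, and neuronal genes have -0.215 at 48 hpf.

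Genes of neural and muscle development and of heat shock were also looked up. Over the 3 stages the log2 differences were 0.17 for her4.4, a Notch target of neural progenitors, 0.20 for the muscle regulator MYOG, -0.11 for elavl4, and 0.21 for rdh10b, which makes retinal for retinoic acid synthesis. The lowest edgeR adjusted p among them was 0.963, for rdh10b. The heat shock genes hsp70l and hspb1 had 0.13 and 0.098 (adjusted p = 0.999 for both).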

How the data were processed

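RNA of entire AB embryos and larvae was sequenced as stranded mRNA libraries. Per the labels, the authors aligned the reads with STAR to GRCz11, and they deposited raw counts per gene for each strand without normalization. Reads mapped to more than 1 place are absent from these counts (14.9% to 25.5% of read pairs). The column of the strand with most counts was used. Groups came from the sample labels. Of 32057 genes, 27128 took a symbol from a table of gene names, 1867 from a table of the study and 3062 had none.

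Genes were filtered with filterByExpr (minimum count 10), normalised with TMM factors, and then fitted with edgeR 4.0.16 (R 4.3.3) for quasi-likelihood tests, with Benjamini-Hochberg adjustment over all genes. Stage was a block over the 3 stages, and the interaction of dose rate and stage tested the difference between stages. Positions used log2 CPM (prior count 2) of 10 controls of another irradiation batch, I10. Levels are comparable only within a gene, since no length was used. The fits were tested on simulated data. The DNA damage target list holds 1 gene whose own values are not reported here. The members and the 32 gene lists were chosen with earlier results of these data known. Named genes followed a rule: up to 10 in each direction over the stages and 5 in each stage, the genes that passed or else those of lowest p, the 10 lowest p for a difference between stages, the list members of lowest p, and a fixed set of damage target, heat shock, neural and muscle genes. Outside the rule, JUNB, MFAP4, MPEG1, PPM1D, RRM2B, SOCS3, XPC, col8a1a, ier2a, il1b, junba, lcp1, ptprc, sesn3, spi1a and sult5a1 were named after their values were seen.

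Alternatives were DESeq2 1.42.0, its size factors, no filter, counts without regard to strand, samples left out, controls in the fit, a replicate block, developmental position as a covariate, an adjusted p of 0.05 and a test against a fold of 1.5. The fit with controls took a mean per dose rate and stage in place of the stage block. Leaving out each stage was added after seeing the data. Other dose rates and batches were not analysed here, and no sequence is printed because no sequence table was used here.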

Additional observations from a re-analysis of the deposited data

Results flagged for a closer look

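The effect of 50 against 5 mGy/h differed between stages for irg1l, by a test of the difference itself (edgeR interaction test over 18 libraries, adjusted p = 0.00154). Its log2 differences were -0.16 at 24 hpf, 0.31 at 48 hpf and -2.74 at 96 hpf. The effect also differed between stages for si:ch211-153b23.3 (edgeR adjusted p = 0.00355), with 0.71, 0.24 and -3.19 at those stages. With 1 library left out, irg1l failed to pass only without replicate 10 or 11 of 50 mGy/h at 96 hpf. The gene si:ch211-153b23.3 failed to pass in most such fits, among them each fit without a 5 mGy/h library of 24 hpf. In both genes the 5 mGy/h larvae at 96 hpf stood above the controls as well as above the 50 mGy/h larvae. Groups of 3 samples were not searched for single outlying samples.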

How the results depend on the processing

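Over the 3 stages edgeR called 0 genes, against 2 with DESeq2 (crtac1a, si:ch211-219a15.4), 1 with no filter on low counts (crtac1a), 2 with the controls in the fit (crtac1a, irg1l) and 1 without the 24 hpf stage (plekhs1.1), a setting added after seeing the data. Leaving out 1 library gave 0 to 1 over the stages, 0 to 1 at 24 hpf, 0 at 48 hpf, 0 to 5 at 96 hpf and 0 to 3 for the difference between stages (0 without replicate 10 or 11 of 50 mGy/h at 96 hpf, lowest adjusted p 0.0121 and 0.0194). At 48 hpf DESeq2 called 2. The 5 calls at 96 hpf became 33 with DESeq2, 12 with no filter, 0 without the samples removed by the authors, 1 without the libraries with the most multimapped reads, 11 with the controls in the fit, 47 with developmental position as a covariate and 11 at an adjusted p under 0.05. All 5 were among the calls of each setting with 5 or more. The 2 calls for a difference between stages became 12 with DESeq2 and 5 with the controls in the fit.

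The replicate block gave 51 calls at 96 hpf (47 lower, 4 higher) and 0 over the stages, at 24 hpf and at 48 hpf. Deviations of same-numbered samples correlated between -0.453 and 0.554 over 7 pairs and not above 0.1 in each, so the numbers were not taken as pairs. At 96 hpf, where the block raised the calls, same-numbered samples had 0.334, 0.554 and 0.00814 for replicates 9, 10 and 11. Samples of unlike number had -0.528 to 0.26 there. Whether samples of 1 number belong together at 96 hpf was not settled by these values. The cause of these changes was not tested.

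Genes called against controls at 50 mGy/h alone numbered 845, 596 and 113 at 24, 48 and 96 hpf at an adjusted p under 0.05, and those at 5 mGy/h alone 1846, 2 and 62, of which 11 had a direct adjusted p under 0.05 at 96 hpf. Without the samples removed by the authors, 271 (48 hpf) and 19 (96 hpf) were called at 50 mGy/h alone and 42 at 5 mGy/h alone at 96 hpf, of which the direct test called 0 and 7 had an adjusted p under 0.05.

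The sign of sesn1 over the stages turned without regard to strand (-0.0641), without the most multimapped libraries (-0.025), under the replicate block (-0.0438), without the 24 hpf stage (-0.0553) and without 4 of the single libraries (-0.0228, -0.0187, -0.00391 and -0.00126), with a range of -0.0228 to 0.101 over all 18. The gene zgc:153932, near 0 before 96 hpf, turned over the stages with DESeq2 (1.04) and with the controls in the fit (1.85). The difference in position, -0.959 at 24 hpf and -0.329 at 96 hpf, ranged from -2.6 to 1.79 and from -3.26 to 2.195 when 1 library was left out, and from -11.7 to -2.91 at 48 hpf and from -4.32 to -1.4 over the stages. With 3 libraries a group, depth limits genes such as NOS2 and plekhs1.1, which had few counts.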
